A study of Mus musculus with 39 samples.

Results

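The RNAs described here encode the conjugating enzymes of mouse liver: the uridine diphosphate glucuronosyltransferases (Ugt), the glutathione S-transferases (Gst and the microsomal Mgst) and the sulfotransferases (Sult). They were chosen by gene symbol from the genes measured in both of a pair of sucrose gradients, and 55 of 13230 genes met the rule: 17 Ugt, 21 soluble Gst, 2 Mgst and 15 Sult. The gradients ran from 10 to 50% sucrose and were each loaded with homogenate of wild type FVB female mouse liver, made with beads and no detergent and cleared of nuclei. Fractions are numbered from light to dense, fraction 4 of gradient 1 being named as the lowest in density, and their RNA was sequenced as 39 libraries, 17 for gradient 1 and 22 for gradient 2, which do not differ in treatment. The age of the mice is not given in the sources used here. Each fraction was replicated only by the other gradient, a biological replicate by the authors' account. The p-values therefore measure the spread between 2 gradients. Values are the authors' TPM, the share of a fraction's RNA that an RNA takes per unit of its length, and not its amount. TPM holds no read counts, so that the depth of the libraries is unknown from these values, and the number of genes over 1 TPM ran from 10532 to 12558 per library.

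Conjugation makes drugs, steroids, bile acids and bilirubin more soluble in water and is a main task of hepatocytes. Ugt enzymes are made with a signal peptide, face the lumen of the endoplasmic reticulum (ER) and are held in its membrane near their end, while most Gst and Sult enzymes are soluble proteins made on free ribosomes. Mgst enzymes belong to a separate family of small membrane proteins of the ER and mitochondria.

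Many of these genes lie in clusters of near copies, and their reads can be shared in the authors' counting. In GENCODE transcripts that carry a RefSeq mRNA (GRCm38), 21 of the 55 members share at least 20% of their 31-base words with transcripts of another gene, 11 of them Ugt, 5 soluble Gst and 5 Sult. Ugt1a6a and Ugt1a6b lie in the Ugt1a cluster on chromosome 1, whose genes have their own first exons and common last exons, and each shares 85.1% of its words with other genes. Gstp1 and Gstp2 share 67.5% and 69.6%, and Sult2a2 shares 74.5%. Values of these genes are uncertain in how reads were divided among copies. Ugt2b34 shares 2.81% and Sult2a8 none of its words, and 18 members in all share under 1%.

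The members' part of a library's TPM ran from 0.835% to 3.82% (median 2.34%) in gradient 1, and gradient 2 had a range from 0.961% to 3.55% (median 2.44%). Soluble Gst RNAs were the most abundant family. Gstp3 (chromosome 19, 4057477 to 4059569), of the pi class, had the highest mean, 4368 TPM over the 34 libraries of the 17 fractions present in both gradients, followed by Gstm1 of the mu class (chromosome 3, 108012255 to 108017973) with 3618 TPM and Gsta3 of the alpha class (chromosome 1, 21240589 to 21265661) with 2644 TPM. In the dense zone Gstm1 was above Gstp3, at 7195 against 6792 TPM in gradient 1 and 6078 against 5218 TPM in gradient 2. Of the sulfotransferases, Sult3a1 had the highest mean, 1930 TPM, and Sult1a1, which conjugates phenols, had 978 TPM. No Ugt RNA came near these levels, and the highest, Ugt2b36, had a mean of 115 TPM. A mean of at least 10 TPM was reached by 45 members and one of at least 100 TPM by 24. Gsto2 and Ugt2a1, with means of 0.745 and 0.442 TPM, were below the minimum of 1 TPM and were not tested, which left 53 members.

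Summed RNAs for the enzymes of the ER lumen and for the cytosolic enzymes differed in opposite directions between the light and dense zones, with exceptions among single members. Summed over the family, Ugt RNA had a mean of 934 TPM in the light zone of gradient 1 (fractions 4 to 7), 365 TPM in the middle zone (fractions 10 to 13) and 322 TPM in the dense zone (fractions 16 to 19). In gradient 2 the same means were 1203, 604 and 631 TPM. Soluble Gst RNA ran the other way, from 5558 through 14034 to 27685 TPM in gradient 1 and from 5820 through 15002 to 24221 TPM in gradient 2. Sult RNA was at 2253, 6069 and 7471 TPM in gradient 1 and at 2884, 6270 and 5997 TPM in gradient 2. In both gradients the mean of the dense zone was thus below that of the light zone for Ugt and above it for Gst and Sult.

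**Figure D1:**
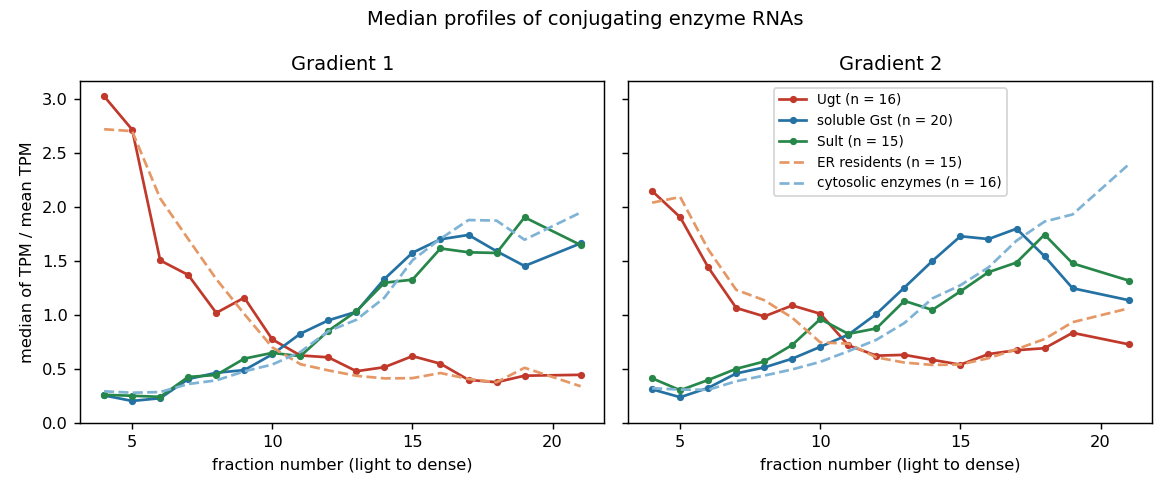
Each line is the median over the genes of a group of TPM divided by the gene's mean TPM (vertical axis), against the fraction number for the 17 fractions present in both gradients (horizontal axis), with gradient 1 on the left and gradient 2 on the right. The line of the 16 Ugt RNAs is highest at fraction 4 in both gradients, as the lines of 20 soluble Gst and 15 Sult RNAs lie below 0.5; dashed lines show the 15 ER residents and 16 cytosolic enzymes listed for comparison.

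Tested gene by gene, 26 of the 53 members were higher in the dense than in the light zone and 10 were lower, at an adjusted p under 0.05 (limma on log2(TPM + 1) averaged over the 4 fractions of a zone, 2 gradients per zone, two-sided, Benjamini-Hochberg over 11754 genes). Beside them, 22.3% of all genes tested passed as higher and 39.6% as lower. The members that were higher were 15 of 20 soluble Gst, 10 of 15 Sult and Mgst3, and those that were lower were 9 of 16 Ugt and Sult2a8. In this fit, which leaves out the pairing of zones within a gradient, no Ugt RNA was higher and no soluble Gst RNA lower, also at an unadjusted p under 0.05, where 11 Ugt were lower and 16 soluble Gst higher. The median change was −1.55 on the log2 scale for Ugt (−1.68 in gradient 1 and −1.11 in gradient 2), 2.36 for soluble Gst (2.49 and 2.30) and 2.14 for Sult (2.42 and 1.60). With only the members that share under 20% of their words, a choice made after seeing the data, the Sult median was 1.28. Over all genes the median was −0.43, and relative to it the families were at −1.12, 2.78 and 2.57. Quantile normalization moved the median of all genes to −0.05 and the share of called genes that were higher from 36.0% to 50.6%, and the medians were then −1.42 for Ugt, 2.24 for soluble Gst and 2.24 for Sult, with 27 members higher and 7 lower. With the gradient as a replicate block in limma, 33 members were higher and 16 lower, among them 2 Ugt higher and 14 lower, beside 30.5% and 50.0% of all genes. The count of lower members and the share of all genes that were lower both moved when 1 zone of 1 gradient was left out. Without the light zone of gradient 1 or of gradient 2 the Ugt median was −1.61 and −1.34. Without the dense zone of gradient 1 or of gradient 2 it was −0.96 and −1.82.

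**Figure D2:**
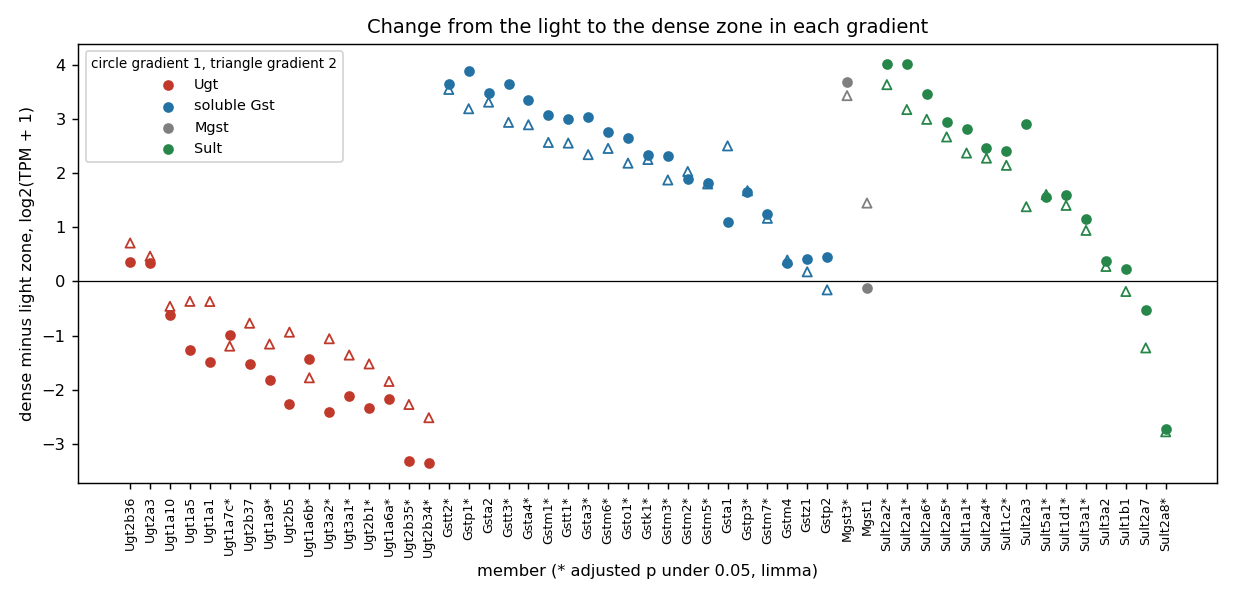
Points give the difference between the dense and light zones on the log2(TPM + 1) scale (vertical axis) for each of the 53 members tested (horizontal axis, ordered within a family), filled circles for gradient 1 and open triangles for gradient 2. Asterisks mark the 36 members with an adjusted p under 0.05 in limma, and Sult2a8 lies at −2.73 and −2.78, far below the other called Sult RNAs.

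Among the glucuronosyltransferases, most RNAs were concentrated in the lightest fractions. Ugt2b34, a member of the Ugt2b group that conjugates steroids and bile acids (chromosome 5, 86889767 to 86906937, minus strand), had a lowest TPM of 13.3, a median of 19.9 and a highest of 278 over the 17 fractions of gradient 1, and 26.4, 41.1 and 324 in gradient 2. It was highest at fraction 5 in both gradients. The dense zone differed from the light zone by −2.94 ± 0.47 on the log2 scale (SE of the unpaired fit, n = 2 gradients), with an adjusted p of 0.00308 by limma. Ugt2b35, a lower-expressed neighbor, was highest at fraction 4. Its means in the light and dense zones were 33.1 and 2.00 TPM in gradient 1 and 66.3 and 11.1 TPM in gradient 2. It fell by 2.79 ± 0.79 on the log2 scale, with an adjusted p of 0.0238 by limma and of 3.44e-04 with the gradient as a replicate block. Its adjusted p was 0.0698 without the light zone of gradient 1, 0.146 without that of gradient 2 and 0.0735 without the dense zone of gradient 1.

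Ugt1a6b, which conjugates phenols (chromosome 1, 88103252 to 88219003), went from 136 TPM in the light zone to 41.3 TPM in the dense zone of gradient 1 and from 176 to 42.5 TPM in gradient 2. At fraction 4 it reached 247 and 311 TPM, and the difference between zones was −1.61 ± 0.19 (adjusted p = 0.00108, limma). Of the 7 Ugt1a RNAs, 4 fell, beside 39.6% of all genes tested, and the median change was −1.10, or −0.67 relative to all genes. With the gradient as a replicate block all 7 were lower (limma, adjusted p under 0.05), beside 50.0% of all genes. They share from 41.9% to 85.1% of their words with other genes, so that they are not 7 separate measurements. For Ugt1a1, the enzyme of bilirubin, named here after its values were seen, the differences were −1.50 in gradient 1 and −0.37 in gradient 2, with an adjusted p of 0.160 by limma and of 0.0256 with the gradient as a replicate block. Ugt3a2, which uses other sugars than glucuronic acid, had 83.3 and 13.9 TPM in the light and dense zones of gradient 1 and 79.4 and 35.1 TPM in gradient 2. It fell by 1.73 ± 0.41, with an adjusted p of 0.0133 by limma and of 0.00458 with the gradient as a replicate block. Without the light zone of gradient 1 or of gradient 2 its adjusted p was 0.0825 and 0.0737. Ugt2b5 had 104 and 20.2 TPM in these zones of gradient 1 and 119 and 62.2 TPM in gradient 2. Its difference of −1.60 ± 0.57 had an adjusted p of 0.0515 by limma, and of 0.00537 with the gradient as a replicate block.

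Ugt2b36 and Ugt2a3, the 2 most abundant Ugt RNAs, had no light peak. Ugt2b36 (chromosome 5, 87065927 to 87092555, minus strand) ran from 68.9 TPM through a median of 87.1 to 115 TPM in gradient 1, and from 101 through 135 to 204 TPM in gradient 2, with its highest value at fraction 19 in both. Ugt2a3 (chromosome 5, 87324972 to 87337195) ran from 44.6 through 63.1 to 80.5 TPM in gradient 1 and from 78.1 through 128 to 155 TPM in gradient 2. Their lowest and highest fractions thus differed far less than those of Ugt2b34. The dense zone differed from the light zone by 0.54 ± 0.37 for Ugt2b36 (adjusted p = 0.251, limma) and by 0.40 ± 0.48 for Ugt2a3 (adjusted p = 0.492, limma). Without the light zone of gradient 1 or the dense zone of gradient 2, the change of Ugt2a3 was slightly negative. With the gradient as a replicate block in limma the adjusted p was 0.0116 for Ugt2b36 and 0.0119 for Ugt2a3. As a result the makeup of the Ugt RNA differed between the zones: in gradient 1 Ugt2b36 and Ugt2a3 held 8.53% and 5.77% of the Ugt TPM in the light zone and 31.9% and 21.1% in the dense zone, and in gradient 2 they held 8.91% and 8.00% in the light and 28.0% and 20.8% in the dense zone. Ugt2b34 held 19.5% and 19.2% in the light zones of gradients 1 and 2 and 4.93% and 5.91% in the dense zones.

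Soluble Gst enzymes are divided into classes by sequence. Between the light and dense zones, 2 of 4 alpha, 6 of 7 mu, 2 of 3 pi and 3 of 3 theta class RNAs rose, beside 22.3% of all genes tested (limma, adjusted p under 0.05). With the gradient as a replicate block, these were 4 of 4 alpha, 7 of 7 mu, 2 of 3 pi and 3 of 3 theta, beside 30.5% of all genes. Gstm1 had a lowest TPM of 593, a median of 2957 and a highest of 8784 in gradient 1, and 810, 2875 and 6988 in gradient 2. Both lowest values were at fraction 5. The rise from the light to the dense zone was 2.82 ± 0.20 on the log2 scale (SE of the unpaired fit, n = 2 gradients), with an adjusted p of 3.34e-04 by limma. Gsta3, known for the detoxification of aflatoxin in mice, went from 622 to 5038 TPM between these zones in gradient 1 and from 960 to 4882 TPM in gradient 2, a rise of 2.69 ± 0.27 (adjusted p = 7.24e-04, limma). Gstt1, of the theta class, had 192 and 1493 TPM in the light and dense zones of gradient 1 and 222 and 1295 TPM in gradient 2, and rose by 2.78 ± 0.18 (adjusted p = 3.04e-04, limma).

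The largest rises among soluble Gst RNAs with a mean of at least 10 TPM that passed the test were those of Gstt2 and Gstp1. Gstt2 (chromosome 10, 75831114 to 75837424) went from 25.6 to 311 TPM in gradient 1 and from 34.5 to 399 TPM in gradient 2, a rise of 3.60 ± 0.24 (adjusted p = 3.21e-04, limma). Gstp1 (chromosome 19, 4035407 to 4037985) went from 203 to 2607 TPM and from 233 to 1844 TPM, a rise of 3.54 ± 0.23 (adjusted p = 3.06e-04, limma). Between the light and dense zones the 3 pi class RNAs had changes of different size, with no test of that difference. Gstp3 was already at 2216 TPM in the light zone of gradient 1 and 1675 TPM in that of gradient 2, and rose by 1.67 ± 0.25 (adjusted p = 0.00234, limma). Gstp2, named after its values were seen, differed by 0.45 in gradient 1 and −0.16 in gradient 2 (adjusted p = 0.692, limma). From the light to the middle zone all 3 pi class RNAs rose, beside 23.5% of all genes tested (limma, adjusted p under 0.05).

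Gstz1 had its highest zone mean in the middle zone. This enzyme, a maleylacetoacetate isomerase of tyrosine breakdown (chromosome 12, 87147165 to 87164723), had a mean of 788 TPM in the light, 1376 TPM in the middle and 1036 TPM in the dense zone of gradient 1, and 913, 1483 and 1046 TPM in gradient 2. It was highest at fraction 12 of gradient 1 and fraction 13 of gradient 2, inside the middle zone. Between the dense and light zones it differed by 0.29 ± 0.17 (adjusted p = 0.184, limma), and between the middle and light zones by 0.75 ± 0.17 (adjusted p = 0.0157, limma). Gstm4, named after its values were seen, was highest at fraction 14 in both gradients and likewise passed the test between the middle and light zones, at 0.76 ± 0.16 (adjusted p = 0.0119, limma). Between the dense and middle zones, Gstz1 differed by −0.46 and Gstm4 by −0.39, with adjusted p of 0.102 and 0.128 by limma and of 0.0239 and 0.0262 with the gradient as a replicate block.

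The profiles of the microsomal transferases had a Pearson's R with each other of −0.52 in gradient 1 and of 0.813 in gradient 2. Mgst3 (chromosome 1, 167371966 to 167393841) followed the soluble enzymes, with 9.99, 80.1 and 133 TPM in the light, middle and dense zones of gradient 1 and 9.33, 61.0 and 106 TPM in gradient 2. It rose by 3.56 ± 0.22 from the light to the dense zone (adjusted p = 3.01e-04, limma). Mgst1 (chromosome 6, 138140316 to 138156755), an abundant protein of the ER and the outer mitochondrial membrane, was the member whose profiles in the 2 gradients were least alike. In gradient 1 it had a lowest TPM of 374, a median of 556 and a highest of 877, at fraction 4. In gradient 2 these were 516, 1194 and 2277, and the highest was at fraction 19. Its zones were at 599, 654 and 525 TPM in gradient 1 and at 723, 1218 and 1881 TPM in gradient 2, so that the dense zone differed from the light zone by −0.13 and 1.45, with an adjusted p of 0.385 by limma. Without the dense zone of gradient 1 the difference was 1.57 (adjusted p = 0.0277, limma), and without that of gradient 2 it was −0.25.

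**Figure D3:**
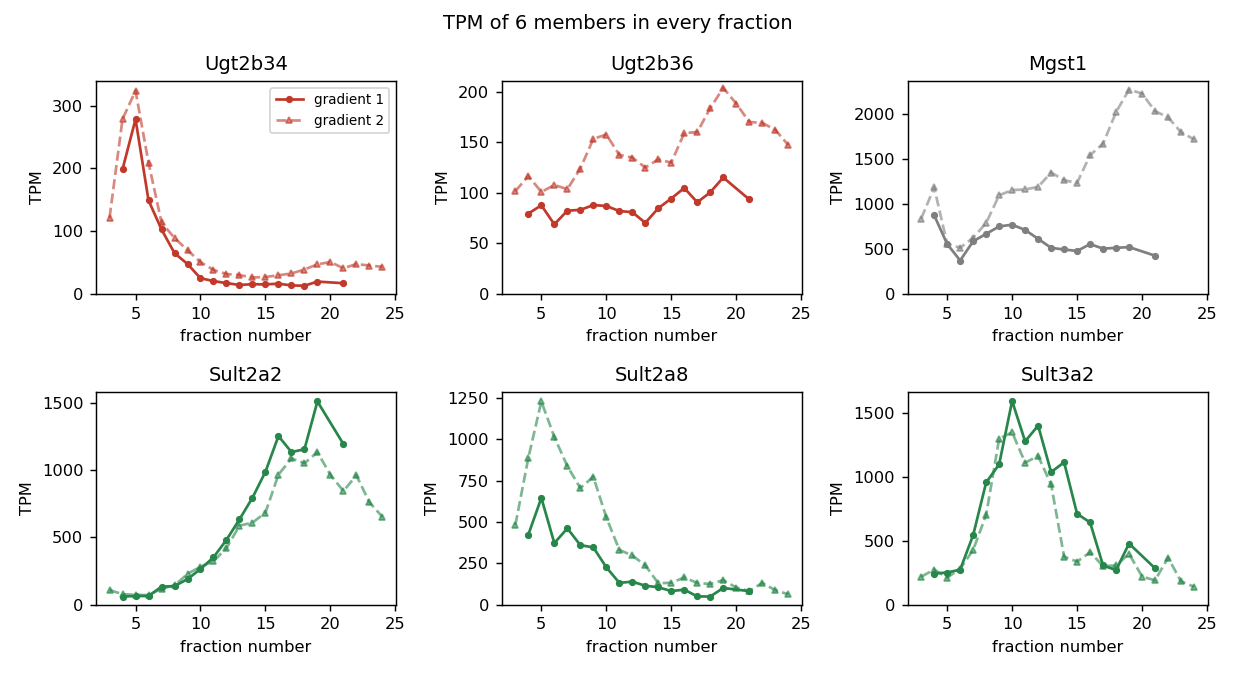
TPM (vertical axis, from 0) is plotted against fraction number (horizontal axis) in every library for Ugt2b34, Ugt2b36, Mgst1, Sult2a2, Sult2a8 and Sult3a2, with gradient 1 as solid lines and gradient 2 as dashed lines. Ugt2b34 and Sult2a8 are highest at fraction 5, Sult3a2 at fraction 10 and Sult2a2 at fraction 19 in both gradients, and Mgst1 is highest at fraction 4 of gradient 1 and fraction 19 of gradient 2.

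Sulfotransferase RNAs spanned the whole gradient. The hydroxysteroid sulfotransferases of the Sult2a group, whose RNAs are known to be higher in female than in male mouse liver, held both ends. Sult2a2 (chromosome 7, 13733505 to 13779636) had a lowest TPM of 61.4, a median of 482 and a highest of 1510 in gradient 1, and 72.2, 422 and 1133 in gradient 2, with the highest value at fraction 19 in both. It rose by 3.82 ± 0.16 from the light to the dense zone (adjusted p = 3.01e-04, limma), the largest rise of the 53 members. Sult2a1 rose by 3.60 ± 0.97, with an adjusted p of 0.0203 by limma and of 1.08e-04 with the gradient as a replicate block. Its changes were 4.02 in gradient 1 and 3.18 in gradient 2. Its level differed between the gradients, with 70.4 and 1109 TPM in the light and dense zones of gradient 1 and 25.7 and 238 TPM in gradient 2. Sult2a1 shares 53.8% of its words with other genes, so that its values are uncertain in how reads were divided among copies. Its adjusted p was 0.0571 without the light zone of gradient 1, 0.131 without that of gradient 2 and 0.0729 without the dense zone of gradient 1.

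Sult2a8, an enzyme of bile acid sulfation in mouse liver on the same cluster (chromosome 7, 14410686 to 14446769, minus strand), lay at the light end. Its lowest, median and highest TPM were 49.9, 133 and 646 in gradient 1 and 83.0, 298 and 1229 in gradient 2. From the light to the dense zone it went from 476 to 73.4 TPM in gradient 1 and from 993 to 143 TPM in gradient 2. These are changes of −2.73 and −2.78 on the log2 scale. Their mean was −2.75 ± 0.57 (SE of the unpaired fit, n = 2 gradients), with an adjusted p of 0.00787 by limma. This was the 1 Sult RNA that fell by this test, and it alone held 21.1% of the Sult TPM in the light zone of gradient 1 and 34.4% in that of gradient 2. Without the light zone of gradient 2 the change was −2.22 (adjusted p = 0.0598, limma). Over the 17 fractions, the center of sedimentation of Sult2a8, the mean fraction number weighted by TPM, was 8.68 in gradient 1 and 8.42 in gradient 2, where Sult2a2 had 15.8 and 15.5. Its neighbor Sult2a7, named after its values were seen, had centers of 7.63 and 9.41 but a mean of 2.04 TPM. With the gradient as a replicate block Sult2a8 had an adjusted p of 7.12e-05 by limma. Sult2a7 was then also lower in the dense than in the light zone, at −0.88 (adjusted p = 0.0143, limma).

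Of the remaining abundant Sult RNAs, Sult1a1 rose, and those of the Sult3a group, known for the sulfation of amines, had their highest zone mean in the middle zone. Sult1a1 (chromosome 7, 126672865 to 126676432) went from 275 through 758 to 1924 TPM over the light, middle and dense zones of gradient 1 and from 320 through 698 to 1656 TPM in gradient 2, a rise of 2.60 ± 0.18 between the outer zones (adjusted p = 3.21e-04, limma). Sult3a2 (chromosome 10, 33766424 to 33786704) went from 329 through 1327 to 425 TPM and from 300 through 1141 to 355 TPM, with its highest value at fraction 10 in both gradients. It rose by 2.02 ± 0.17 from the light to the middle zone (adjusted p = 0.00120, limma) and fell by 1.70 ± 0.17 from the middle to the dense zone (adjusted p = 0.00700, limma). Between the outer zones it differed by 0.32 ± 0.17 (adjusted p = 0.145, limma), or −0.12 after quantile normalization and with an adjusted p of 0.0315 with the gradient as a replicate block. Sult3a1 went from 881 through 2656 to 2052 TPM in gradient 1 and from 970 through 3134 to 1881 TPM in gradient 2, and rose by 1.65 ± 0.19 from the light to the middle zone (adjusted p = 0.00194, limma) and by 1.05 ± 0.19 from the light to the dense zone (adjusted p = 0.00440, limma). Its difference of −0.60 between the dense and middle zones had an adjusted p of 0.0608 by limma, and of 0.0136 with the gradient as a replicate block.

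Much of the difference between the ends of the gradients was already present at the middle. Between the middle and light zones, 28 of 53 members were higher in the middle zone and 5 were lower, beside 23.5% and 24.1% of all genes tested (limma, adjusted p under 0.05). The higher members were 18 of 20 soluble Gst, 9 of 15 Sult and Mgst3, and all 5 lower members were Ugt: Ugt1a6a, Ugt1a6b, Ugt1a7c, Ugt2b34 and Ugt3a1, of which Ugt1a6a, Ugt1a7c and Ugt3a1 are named after their values were seen. The median change was −1.21 for Ugt (−1.22 in gradient 1 and −1.03 in gradient 2), 1.47 for soluble Gst (1.49 and 1.50) and 1.27 for Sult (1.43 and 1.40), where that of all genes was 0.05. Rescaling without the 50 most abundant genes moved the median of all genes to −0.12 and gave 10 lower members, beside 28.4% of all genes. With the gradient as a replicate block 35 members were higher, among them Ugt2a3 (0.49, adjusted p = 0.00676, limma), and 13 lower, 12 Ugt and Sult2a8, beside 37.2% and 35.0% of all genes. Leaving out 1 zone of 1 gradient moved the count of lower members, and the share of all genes that were lower moved as well.

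From the middle to the dense zone a part of the soluble enzymes rose, and no Ugt RNA passed the unpaired test. Here 16 members were higher and 1, Sult3a2, was lower, beside 4.79% and 22.5% of all genes tested (limma, adjusted p under 0.05). With gradient 2 shifted by 1 fraction denser, 4 members were higher, beside 2.17% of all genes. The 16 were 8 of 20 soluble Gst, 7 of 15 Sult and Mgst3. None of the 16 Ugt RNAs passed in either direction, and at an unadjusted p under 0.05 none was higher and 1 was lower in limma. With the gradient as a replicate block 1 passed, Ugt3a1, at −0.76 (adjusted p = 0.0234, limma), named after its values were seen. Their median change was −0.14, that of soluble Gst 0.75, that of Sult 0.99 and that of all genes −0.28. Quantile normalization moved the median of all genes to 0.03 and the share of called genes that were higher from 17.5% to 42.9%, with 15 members higher and 2 lower. With the gradient as a replicate block 24 members were higher and 8 lower, beside 14.1% and 39.3% of all genes. Without the dense zone of gradient 1 or of gradient 2, 8 members were higher, beside 2.19% and 3.84% of all genes. Without the middle zone of gradient 1, or that of gradient 2, limma called no member and no gene in this comparison, and at an unadjusted p under 0.05 it gave 13 and 17 members higher and 5 and 1 lower.

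The center of sedimentation summed up each profile as a single position. The 16 Ugt RNAs tested had a median center of 9.03 in gradient 1, from 6.93 for Ugt2b35 to 12.5 for Ugt2b36, and of 10.3 in gradient 2, from 8.17 to 12.9 for the same genes. The 20 soluble Gst RNAs lay between 12.3 and 16.2 in gradient 1 (median 14.9) and between 11.2 and 15.3 in gradient 2 (median 14.3). The 15 Sult RNAs lay between 7.63 and 15.8 in gradient 1 (median 14.9) and between 8.42 and 15.6 in gradient 2 (median 14.2). All genes tested had medians of 11.3 in both gradients. From gradient 1 to gradient 2 the center of a member differed by a median of 1.03 fractions for Ugt, −0.540 for soluble Gst and −0.368 for Sult, so that the families lay closer together in gradient 2. Each gradient is 1 replicate, so that this difference has no test. Between zones, an exact permutation test of 2 values against 2 cannot give a p under 0.333. Pearson's R between the centers in gradients 1 and 2 was 0.958 across the 53 members and 0.918 across 11747 genes, which describes genes and not independent replicates.

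Profiles of single members in the 2 gradients had a median Pearson's R of 0.923 over the 17 shared fractions, from −0.21 for Mgst1 to 0.993 for Ugt2b35, given without a p since fractions next to each other share material. The median over all genes tested was 0.899. Within gradient 1, pairs of soluble Gst RNAs had a median R of 0.890, pairs of Ugt RNAs 0.735 and pairs of Sult RNAs 0.526, and in gradient 2 these were 0.889, 0.559 and 0.416. Between families, Ugt with soluble Gst had a median R of −0.62 in both gradients, and soluble Gst with Sult 0.744 and 0.656. The soluble Gst RNAs were therefore the most alike and the Sult RNAs the least, with pairs of Sult RNAs ranging from −0.84 to 0.997 in gradient 1.

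The coding regions of the families were compared at both ends, without a test, and several of their ranges overlap. Codons with T as the middle base encode the hydrophobic residues phenylalanine, leucine, isoleucine, methionine and valine, and were counted in the best window of 10 codons among the first 30 codons. Ugt coding regions had 6 to 8 such codons in that window, both Mgst 7, soluble Gst 3 to 7 and Sult 4 to 6. In the best window of 17 codons among the last 60, where Ugt enzymes cross the membrane, Ugt had 10 to 14, Mgst 7 to 8, soluble Gst 6 to 10 and Sult 6 to 9. All 17 Ugt and no other member ended in codons for a pair of lysines at the spacing of the known ER retrieval signal. Ugt2b36 and Ugt2a3, which had no light peak, had 6 codons in the first window and 13 and 12 in the last, within the range of the other Ugt, and Sult2a8 had 5 and 7, within the range of the other Sult.

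The first windows are shown for members from both sides of the gradients, to set Ugt RNAs with and without a light peak beside Sult2a8 and the soluble enzymes, with codons that have a middle T in capitals and the others in lower case. They lie in coding exons of GENCODE M21 (GRCm38) at chr5:86906879-86906908 for Ugt2b34, chr1:88106972-88107001 for Ugt1a6b, chr5:87092483-87092512 for Ugt2b36, chr6:138147750-138147779 for Mgst1, chr3:108017746-108017775 for Gstm1, chr7:13733577-13733606 for Sult2a2 and chr7:14427881-14427910 for Sult2a8. Those of Ugt1a6b, Mgst1 and Sult2a2 are on the plus strand and the others on the minus strand, and all are written 5′ to 3′ as in the RNA.
Ugt2b34: ATGacagcagccCTGCTCCTGCTCCTGCTC
Ugt1a6b: CTTcctgcagggTTTCTCTTCCTAGTGCTT
Ugt2b36: tggATTtctgctCTGCTGCTGCTGcagATA
Mgst1: acgATCATTCTTaccaagATGATGTTCATG
Gstm1: ATGcctATGATACTGggatactggaacGTC
Sult2a2: tggTTTgaaggcATAcctTTTcctgccATA
Sult2a8: gaaTTTCTGtggATAgaagggATAccaTTC

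Ugt coding regions are longer than those of the other families, while transcript lengths overlap. Ugt transcripts had 1858 to 3359 bases, those of soluble Gst 708 to 1880 and those of Sult 741 to 3805, with coding regions of 1572 to 1608, 633 to 747 and 585 to 900 bases. Across the 53 members tested, transcript length and center of sedimentation had a Pearson's r of −0.62 in gradient 1 and −0.64 in gradient 2, where length and family go together. Within the 16 Ugt RNAs r was −0.44 and −0.73, within soluble Gst −0.18 and −0.12, and within Sult −0.11 and −0.16. These are descriptions across genes, which are not independent, and they carry no p.

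The listed genes that supply, accompany or regulate conjugation were read from the same test. Of 15 ER residents, 11 were lower in the dense than in the light zone and 1, Cyb5r3, was higher, beside 39.6% and 22.3% of all genes tested (limma, adjusted p under 0.05), with a median change of −1.55, near that of the Ugt RNAs. Canx, the ER chaperone calnexin, changed by −3.36 in gradient 1 and −2.44 in gradient 2 (adjusted p = 9.90e-04, limma). All 16 soluble cytosolic enzymes on the list were higher in the dense zone, with a median change of 2.42, and Adh1, alcohol dehydrogenase, changed by 3.04 and 2.86 (adjusted p = 3.05e-04, limma). The median centers of the ER residents were 8.55 and 10.6 and those of the cytosolic enzymes 15.1 and 15.3, so that the shift of the Ugt RNAs between the gradients was accompanied by one of the ER residents.

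Genes listed for the supply or turnover of the cosubstrates and of their conjugates lay on both sides. For uridine diphosphate glucuronic acid, the cytosolic enzymes Ugdh and Ugp2 were higher in the dense zone, with changes of 2.46 and 2.15 for Ugdh in gradients 1 and 2 (adjusted p = 7.72e-04, limma), and the ER transporter Slc35d1 was lower, at −2.94 and −1.78 (adjusted p = 0.0155, limma), as was the lysosomal glucuronidase Gusb. For the sulfate donor PAPS, the synthase Papss1 and the phosphatase Bpnt1 were higher and the Golgi phosphatase Impad1 and the anion transporter Slc26a1 lower, with −3.11 and −2.27 for Impad1 (adjusted p = 0.00182, limma). For glutathione, Gss, its synthetase, was higher, at 2.61 and 2.37 (adjusted p = 3.29e-04, limma), as was Glo1, and Gsr, the reductase, was lower, at −0.53 and −0.39 (adjusted p = 0.0343, limma). Of the 7 glutathione genes, 5 were higher in the middle than in the light zone, beside 23.5% of all genes tested, and 3 were lower in the dense than in the middle zone, beside 22.5%.

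Another list, mostly of conjugating enzymes, also held the epoxide hydrolases Ephx1 and Ephx2, which do not conjugate. Of its 11 genes tested, 8, among them Ephx2, were higher and none lower in the dense zone by limma, with a median change of 1.53. Gnmt, a glycine methyltransferase, had the highest mean of these, 4561 TPM, and changed by 3.18 and 2.73 in gradients 1 and 2 (adjusted p = 5.78e-04, limma). Ephx1, the microsomal epoxide hydrolase, was like Mgst1 unlike between the gradients, with an R of 0.0650 and differences of −1.22 and −0.00 (adjusted p = 0.221, limma). Of 4 tested export pumps, Abcc2, Abcc3 and Abcc6 were lower and Abcg2 higher in the dense zone. Of 10 regulators, Nr1i3, Nfe2l2 and Keap1 were higher and Ppara, Hnf4a and Rxra lower, beside 22.3% and 39.6% of all genes tested, with 1.94 and 1.57 for Nr1i3, the receptor known as CAR (adjusted p = 5.90e-04, limma).

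Markers of cell types were read to check the tissue and the makeup of the zones. Hepatocyte markers dominated, with a summed median of 17945 TPM in gradient 1 and 24752 TPM in gradient 2, and Alb as the most abundant with a mean of 9500 TPM. Their sum went from 44454 TPM in the light to 17879 TPM in the dense zone of gradient 1 and from 32436 to 31404 TPM in gradient 2. Of the 8 hepatocyte markers, 2 were higher in the dense zone and 4 lower, beside 22.3% and 39.6% of all genes tested. Summed Kupffer cell markers were at 157 TPM in the light and 45.6 TPM in the dense zone of gradient 1 and at 149 and 53.4 TPM in gradient 2, with 5 of 6 lower and Cd5l the most abundant. Sinusoidal endothelial markers went from 88.5 to 40.5 TPM and from 59.8 to 33.2 TPM, with 4 of 5 tested lower, and stellate markers from 108 to 37.7 TPM and from 124 to 36.4 TPM, with 5 of 6 lower. Cholangiocyte markers stayed under 10 TPM in sum in every shared fraction, with none of 3 tested passing the test, and erythroid markers went from 394 to 89.0 TPM and from 300 to 77.2 TPM, with 2 of 3 tested lower. The part of these cell types in the fall of the Ugt RNAs was not tested.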

How the data were processed

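Deposited TPM, by gene symbol and in a table for each gradient, were used as the authors made them from stranded libraries without ribosomal RNA. The submitters' processing notes name bcl2fastq 2.16.0.10, kallisto and mm10, and the version of kallisto is not given in the sources used here. No value column was left without a sample (0). Members were taken by symbol (Ugt1 to Ugt3 genes, Gst with a class letter, Mgst and Sult with a number). The members and gene lists were chosen with earlier results of these data known.

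Zones were averaged as log2(TPM + 1) per gradient over 24 libraries and compared with limma 3.58.1 (trend in eBayes, R 4.3.3), after a minimum mean of 1 TPM. Changes on this scale understate those of low genes. Values after ± are SE of the fit without the block, whose spread includes differences in level between the gradients that their zones share. limma was tested on simulated data. A gradient's zones share a homogenate, which pairs them: deviations from the zone means correlated across 11754 genes with r = 0.665 (light and middle), 0.540 (light and dense) and 0.798 (middle and dense).

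Named genes were, per family, the 6 with the highest mean, the 2 largest rises and 2 largest falls with a mean of at least 10 TPM, an adjusted p under 0.05 and the same sign in both gradients, and members of at least 10 TPM with R under 0.5 between gradients; 22 members met this rule, and others are said to be named after their values were seen. Genes on the fixed lists could be named.

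Transcripts were the longest protein-coding ones of GENCODE M21 (GRCm38, the assembly of mm10) with a RefSeq mRNA, found for all 55 members; 31-base words were compared on both strands, and limiting the other genes' transcripts to those with a RefSeq mRNA was decided after a first look at the shares. Alternatives were the pseudocount, the filter, the scaling, the borders of the zones, the numbering of the fractions, the block and the replicates. Python 3.11.15, NumPy 2.4.6, pandas 2.3.3 and matplotlib 3.10.9 were used.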

Additional observations from a re-analysis of the deposited data

How the results depend on the processing

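Counts of members, family medians, centers, the median R and named genes were recomputed under the alternatives, and other results were not. Family medians of the dense and middle zones against the light zone kept their sign. The share of all genes that passed also differed between the alternatives, so that a change in these counts is not one of the members alone. Of 192 values, 124 were within 1.5 times the count or within 1 SD of the median between the gradients, and 68 moved. A wider spread, the SD of a member, was tried after seeing the data and called 52 moved. Alternatives of the median R between gradients had no such limit and were counted as moved in both. Members lower in the dense than the light zone numbered 10, 16 with the gradient as a replicate block, and 4 to 14 leaving out 1 zone of 1 gradient. Members lower in the middle than the light zone numbered 5, 10 after rescaling without the 50 most abundant genes, 8 with gradient 2 shifted by 1 either way, 13 with the replicate block and 3 to 11 leaving out 1 zone. Members higher in the dense than the middle zone numbered 16, 4 with gradient 2 shifted denser and 0 to 11 leaving out 1 zone. Both counts of 0 in limma, without a middle zone, were 13 and 17 at an unadjusted p under 0.05. Members lower there numbered 1, 3 with a mean of at least 10 TPM, 2 after quantile normalization, with narrow zones or with gradient 2 shifted lighter, 8 with the replicate block and 0 to 2 leaving out 1 zone (5 and 1 unadjusted where 0).

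Dense minus light medians in single gradients were −1.68 to −1.11 for Ugt, 2.30 to 2.49 for soluble Gst and 1.60 to 2.42 for Sult, and that of Ugt was −0.96 without the dense zone of gradient 1. That of soluble Gst moved to 2.54 with a pseudocount of 0.1, 2.66 with narrow zones and 2.19 with gradient 2 shifted denser. Middle minus light medians in single gradients were −1.22 to −1.03 for Ugt, 1.49 to 1.50 for soluble Gst and 1.40 to 1.43 for Sult. That of Ugt moved to −1.44 with the lower pseudocount, −1.41 with at least 10 TPM and −1.47 without the 50 most abundant genes. For soluble Gst and Sult it was 1.55 and 1.65 with the lower pseudocount, 1.48 and 1.46 with at least 10 TPM, 1.29 and 1.32 without the 50 most abundant genes, 1.33 and 1.54 after quantile normalization, 1.73 and 1.41 with narrow zones, 1.33 and 1.18 with wide zones, 1.52 and 1.31 with gradient 2 shifted denser and 1.39 and 1.23 with it shifted lighter, and 1.46 for soluble Gst without a filter. An alternative chosen after seeing the data kept only members that share under 20% of their words, and moved the middle zone medians to −1.61 for Ugt, 1.46 for soluble Gst and 1.15 for Sult, and the dense zone median of Sult to 1.28. The median center of members was 14.4 with all 22 fractions of gradient 2 (Gst 15.3, Sult 15.6). In single gradients it was 13.6 to 13.9, for Ugt 9.03 to 10.3, for Gst 14.3 to 14.9 and for Sult 14.2 to 14.9. The median R between gradients was 0.934 on log2 profiles, 0.875 as Spearman's rho and 0.839 and 0.874 with gradient 2 shifted denser and lighter.

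Of 352 values of named genes, 328 kept their call, 11 gained it, 9 lost it and 4 changed sign. With the replicate block Ugt2b5, Ugt2b36, Ugt2a3 and Sult3a2 gained the call. Sult3a2 went to −0.12 after quantile normalization, Mgst1 ran from −0.25 to 1.57 leaving out a zone, and Ugt2a3 from −0.0731 to 0.87, with −0.00784 without the light zone of gradient 1. A zone left with a lone sample is assumed to vary like the others. The cause of these changes was not tested.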
